A study of Mus musculus with 15 samples.

Results

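The 10 genes described here are the YAP and TEAD response genes Ccn1, Ccn2, Ankrd1, Ajuba, Amotl2, Vgll3 and Axl, the Hippo kinase gene Lats2, and the coactivator genes Yap1 and Wwtr1. They were taken by name as known targets and cofactors of these factors, out of 54838 genes in the expression tables, and all 10 passed the filter on low counts in every comparison. RNA sequencing had been done on 15 mouse libraries, 3 in each of 5 groups. The first group was 4T1 cells, a mammary carcinoma line of BALB/c mice, isolated from lungs of BALB/c mice 7 days after injection into the tail vein (in vivo), and the second was 4T1 cells grown in dishes (in vitro). The other groups were lung epithelial cells, titled by the surface protein EpCAM and sorted 7 days after injection of 800000 labelling 4T1 cells, with 5 lungs pooled per replicate. These came from the metastatic niche labelled shSox9, from the niche without that label, and from distal lung of injected mice, so the 3 epithelial groups all came from lungs that had received 4T1 cells. The labels do not say which cells carried the shSox9 hairpin. Nothing states that the 4T1 replicates were separate cultures or separate mice, so p-values within these cells measure the spread between the libraries, which may be technical.

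YAP and TAZ (the product of Wwtr1) are transcriptional coactivators that bind DNA through TEAD factors. The Hippo kinases LATS1 and LATS2 phosphorylate them and keep them out of the nucleus, and cell spreading, stiff substrates and low cell density favour their nuclear entry. Several of their targets feed back on the pathway, among them Lats2, Amotl2 and Ajuba. In the lung, YAP and TAZ are known for their part in repair of the alveolar epithelium, and in carcinoma cells for invasive growth.

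TEAD factors recognise the core CATTCC, read as GGAATG on the other strand, and the promoter stretches that hold it are shown because this shared letter pattern was not used to choose the genes. In RefSeq promoters of build GRCm38.p6, the first listed window of each gene was searched, from 250 bases before to 50 bases after its start site. Of the 10 genes, 9 had an entry and all 9 held the core on either strand. Of all 27025 genes with a promoter entry, 3955 (14.6%) held it in such a window. The genes were picked as known targets and cofactors, so this share is a description. Searched on both strands, no member promoter held the AP-1 motif TGANTCA, found in 7.93% of genes, or the CArG box of serum response factor, found in 1.57%. The core lay 103 bases upstream of the start in Ccn1, 65 in Amotl2, 63 in Vgll3, 233 in Axl, 141 in Yap1 and 136 in Wwtr1. Ankrd1 held it at 210 and 123 bases upstream and Ajuba at 186 and 164, while in Lats2 it began at base 5 after the start. Distances are from the RefSeq start sites. For Amotl2 and Ankrd1 that start lies inside the gene span given below from the annotation, so their stretches fall within it. Capitals mark the core in each stretch, written 5′ to 3′ on the strand of the gene.
Ccn1, chr3:145650063-145650108, minus strand: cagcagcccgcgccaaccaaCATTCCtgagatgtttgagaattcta
Ankrd1, chr19:36119942-36120074, minus strand: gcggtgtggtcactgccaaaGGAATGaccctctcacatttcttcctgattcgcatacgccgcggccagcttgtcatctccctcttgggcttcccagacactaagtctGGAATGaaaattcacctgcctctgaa
Ajuba, chr14:54577800-54577867, minus strand: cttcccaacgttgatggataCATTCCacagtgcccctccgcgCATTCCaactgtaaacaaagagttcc
Amotl2, chr9:102717719-102717764, plus strand: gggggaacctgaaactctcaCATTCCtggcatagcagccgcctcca
Vgll3, chr16:65815106-65815151, plus strand: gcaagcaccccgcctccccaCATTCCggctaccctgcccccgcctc
Axl, chr7:25788941-25788983, minus strand: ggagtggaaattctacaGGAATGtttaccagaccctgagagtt
Yap1, chr9:8004712-8004757, minus strand: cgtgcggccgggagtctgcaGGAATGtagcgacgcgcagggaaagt
Wwtr1, chr3:57576021-57576066, minus strand: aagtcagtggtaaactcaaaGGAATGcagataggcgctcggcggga

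All 10 are protein-coding genes on GRCm38. Ccn1 lies at chr3:145646976-145649981 and Ccn2 at chr10:24595442-24598683. The targets follow with Ankrd1 at chr19:36111961-36120099, Ajuba at chr14:54567472-54577558, Amotl2 at chr9:102716672-102733418, Vgll3 at chr16:65815257-65866368 and Axl at chr7:25757273-25788705. Lats2 lies at chr14:57689662-57758388, Yap1 at chr9:7931999-8004596 and Wwtr1 at chr3:57455649-57575910. Compared per transcript length as TPM (length-scaled transcript abundance), Axl was the most abundant member in 4T1 cells, at 394 ± 64.7 TPM in vivo and 616 ± 73.2 TPM in vitro (SD, n = 3 each). Ccn1 was the most abundant in all epithelial groups, at 1561 ± 252 TPM in niche cells labelled shSox9, 966 ± 148 TPM in niche cells and 475 ± 92.1 TPM in distal cells. The lowest was Vgll3 in 4T1 cells, at 0.433 ± 0.0874 TPM in vivo and 4.44 ± 1.71 TPM in vitro, and Ajuba in each epithelial group, at 10.0 ± 2.19, 6.83 ± 1.75 and 6.01 ± 1.18 TPM in shSox9 niche, niche and distal cells. Levels across libraries are given as CPM (counts scaled to equal library totals) after TMM scaling over all 15 libraries.

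Some library-wide values bear on what follows. Library totals were 15907254 to 30421678 counts, where 3 counts correspond to 0.0986 to 0.189 CPM. Sox9, the gene named by the hairpin, had 84.3, 62.2 and 38.0 CPM in the niche libraries labelled shSox9, against 64.3, 59.7 and 33.5 CPM in niche libraries (log2 fold change 0.26 ± 0.27 SE, edgeR adjusted p = 0.548), so it was not lower under that label. The epithelial label was checked against markers, and the niche libraries also held fibroblast markers at a high level. The epithelial list (Epcam, Cdh1, Krt8, Krt18 and Cldn4) summed to 875 to 1420 CPM in shSox9 niche, 697 to 1560 in niche and 855 to 977 in distal libraries. It summed to 3528 to 4231 CPM in 4T1 cells in vivo and 3829 to 4071 CPM in vitro, so it cannot tell lung epithelium from 4T1 cells. In shSox9 niche, niche and distal libraries, 10 markers of alveolar type 2 cells summed to 34441 to 63672, 11820 to 15599 and 221046 to 292539 CPM. The 8 fibroblast markers, with none at 0, summed to 10376 to 17274, 13052 to 14982 and 3384 to 3906 CPM in the same order. In these bulk samples fewer cells of a type and less RNA per cell cannot be told apart.

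**Figure D1:**
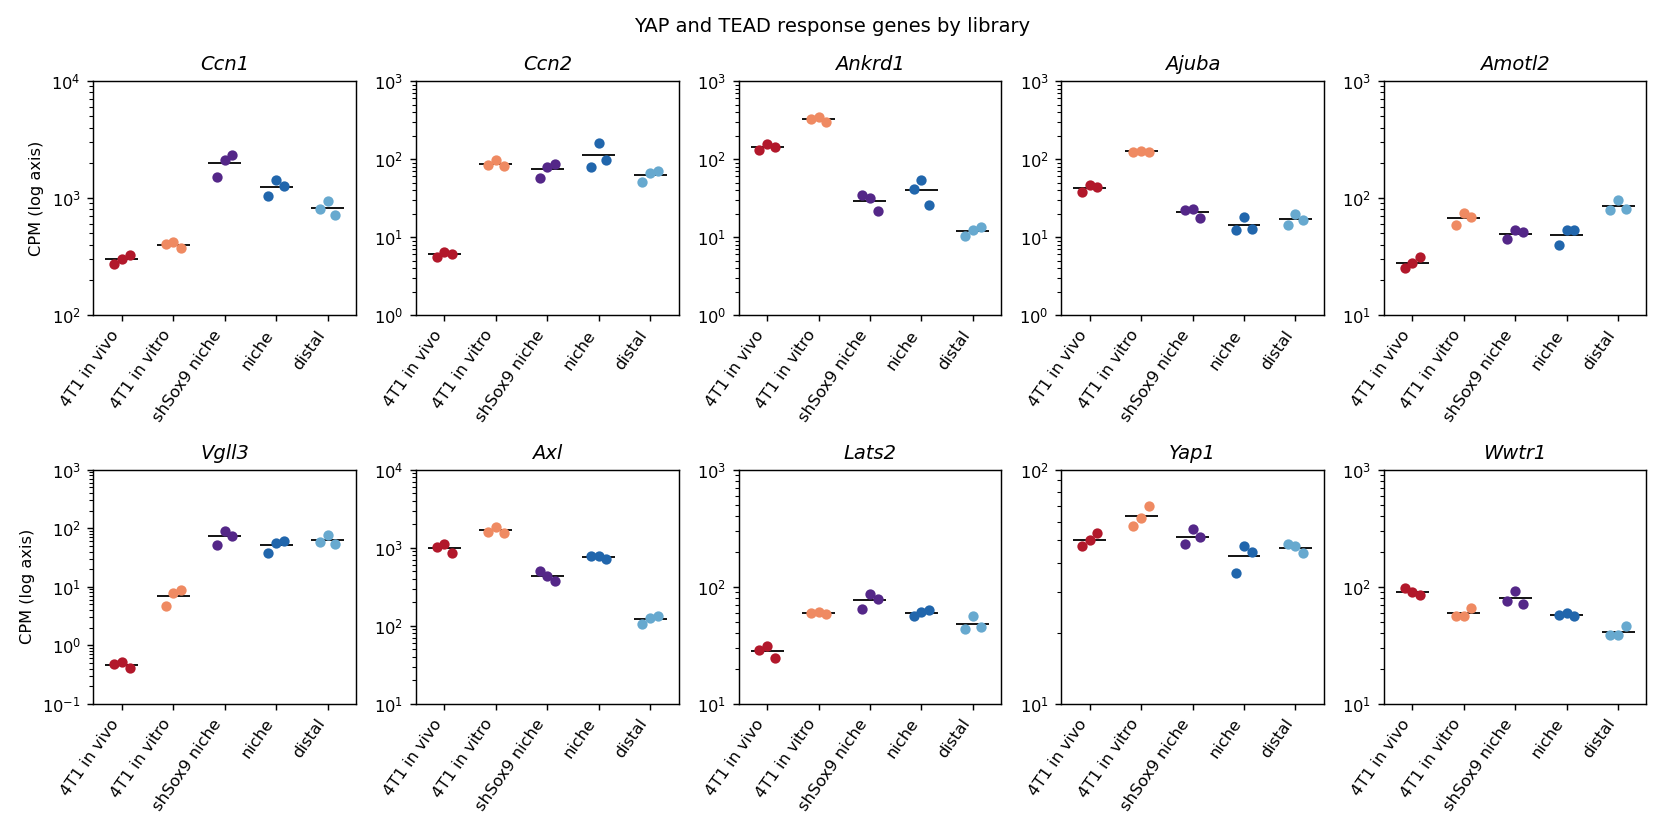
Levels of the 10 genes in each of the 15 libraries, as CPM after TMM scaling on a log axis, with 1 panel per gene, 1 point per library, a line at each group mean and the groups in the order named in the text. Ccn2 at 5.62 to 6.35 CPM and Vgll3 at 0.404 to 0.518 CPM in 4T1 cells in vivo lie below all other libraries, while Yap1 stays between 36.1 and 70.1 CPM in all 15.

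In 4T1 cells the target genes were lower in the lung than in the dish, and Wwtr1 alone was higher. Of the 10 genes, 9 fell and 1 rose (edgeR's quasi-likelihood test, Benjamini-Hochberg adjusted p under 0.05), where 51.0% of the 14022 genes tested were called, 24.0% lower and 27.0% higher (3370 and 3781 genes with TMM, 2425 and 4560 with library size alone). The libraries of the 2 groups did not overlap for any of the 10 genes, as for 61.4% of all genes. The median log2 fold change was -1.09 over the members and 0.01 over all genes.

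The secreted matricellular genes fell to very different degrees. Ccn2 (connective tissue growth factor), a widely used readout of YAP activity, had 5.62, 6.35 and 6.02 CPM in vivo, against 83.2, 97.1 and 81.5 CPM in vitro. Every in vivo library lay far below every in vitro one (log2 fold change -3.82 ± 0.12, where ± after a log2 fold change is the SE, adjusted p = 1.47e-07). Its relative Ccn1, an integrin ligand, had 272, 302 and 327 CPM in vivo, against 406, 417 and 373 CPM in vitro (-0.36 ± 0.09, adjusted p = 0.0101). The ratio of Ccn1 to Ccn2 in TPM averaged 58.1 ± 6.79 in vivo and 4.88 ± 0.25 in vitro (SD, n = 3 each), with exact two-sided permutation p = 0.1, the smallest that 3 against 3 allows, and 0.15 after adjustment over 6 ratio tests. Beside Ccn1, which is itself quickly induced by serum, 13 of 14 immediate early and dissociation-response genes rose, none fell, and their summed level was 7012 to 7863 CPM in vivo and 1275 to 1352 CPM in vitro. The part of this in the level of Ccn1 was not tested.

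Among the intracellular targets, Ankrd1, a nuclear ankyrin-repeat protein first known from heart muscle, had 130, 154 and 142 CPM in vivo, against 326, 345 and 297 CPM in vitro. All 3 in vivo libraries held less than any in vitro library (-1.14 ± 0.10, adjusted p = 2.05e-05). Axl, a receptor tyrosine kinase bound by the ligand Gas6, had 1010, 1102 and 858 CPM in vivo, against 1601, 1859 and 1542 CPM in vitro. It fell (-0.70 ± 0.11, adjusted p = 0.000743) and still kept the highest TPM of the set. Vgll3, a cofactor that also binds TEAD factors, had 0.480, 0.518 and 0.404 CPM in vivo, against 4.69, 7.70 and 8.81 CPM in vitro. Its log2 fold change of -3.86 ± 0.32 (adjusted p = 1.92e-05) was as large as that of Ccn2 but rests on about 9.67 counts per in vivo library.

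The genes that feed back on the pathway fell together. Ajuba, a LIM protein that binds LATS kinases, had 38.0, 46.1 and 43.2 CPM in vivo, against 125, 128 and 125 CPM in vitro (-1.52 ± 0.10, adjusted p = 3.35e-06). Amotl2, an angiomotin that retains YAP at junctions, had 25.5, 27.8 and 31.0 CPM in vivo, against 58.3, 74.6 and 68.4 CPM in vitro (-1.21 ± 0.12, adjusted p = 5.21e-05). Lats2 had 28.8, 31.2 and 24.8 CPM in vivo, against 60.0, 60.8 and 57.9 CPM in vitro (-1.03 ± 0.11, adjusted p = 6.05e-05). For each of these 3 genes the groups were well apart.

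Of the coactivator genes, Wwtr1 rose and Yap1 fell by less. Wwtr1 had 97.6, 89.4 and 84.8 CPM in vivo, against 56.3, 55.8 and 65.7 CPM in vitro (0.66 ± 0.10, adjusted p = 0.000561). Yap1 had 47.1, 49.96 and 53.5 CPM in vivo, against 57.8, 62.3 and 70.1 CPM in vitro (-0.29 ± 0.10, adjusted p = 0.0391). The call on Yap1 is near the threshold: it was lost without in vivo library 1 (adjusted p = 0.141) or 2 (0.0929), without in vitro library 2 (0.0677) or 3 (0.0773), and with library-size scaling alone (0.186). The Yap1 to Wwtr1 ratio in TPM averaged 0.643 ± 0.0875 in vivo and 1.24 ± 0.0602 in vitro (SD, n = 3 each; exact two-sided permutation p = 0.1, adjusted 0.15).

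**Figure D2:**
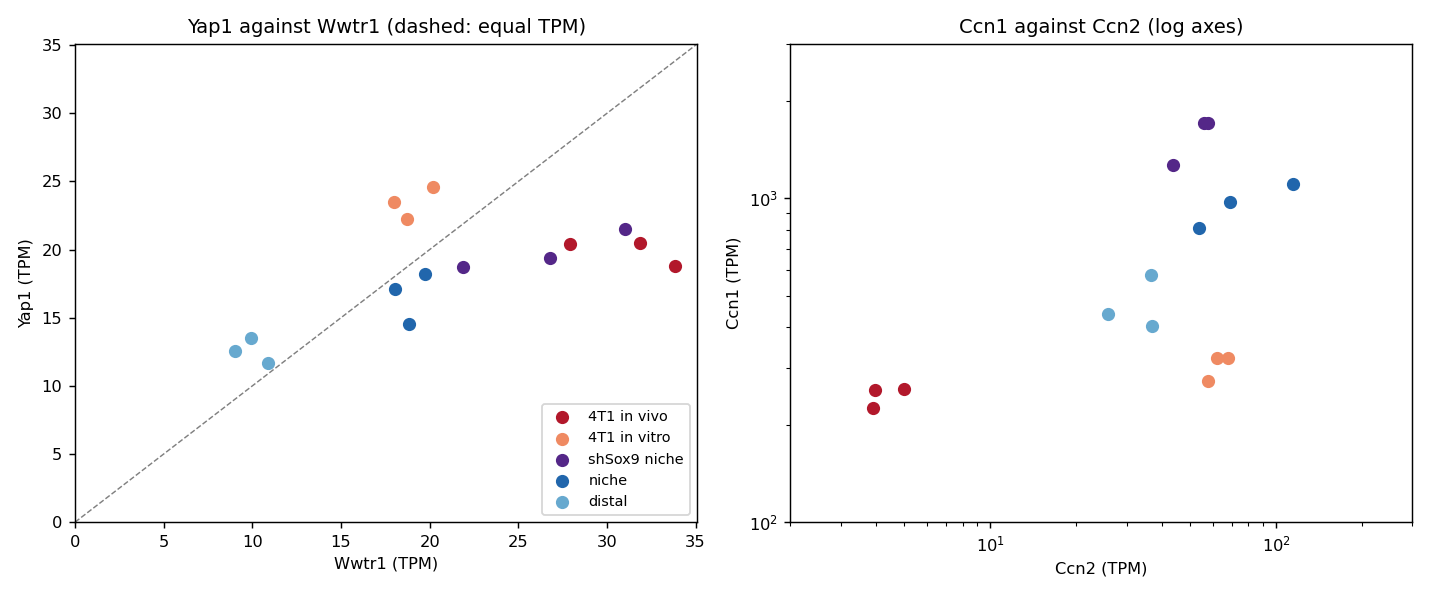
TPM of Yap1 against Wwtr1 and of Ccn1 against Ccn2 in each library, 1 point per library and groups by colour, with linear axes and a dashed line of equal TPM for the first pair and log axes for the second. The 4T1 in vivo libraries hold a Yap1 to Wwtr1 ratio of 0.556 to 0.731 against 1.19 to 1.31 in vitro, and a Ccn1 to Ccn2 ratio of 51.5 to 65.1 against 4.73 to 5.17 in vitro.

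Other genes of the pathway did not all follow the 10. Of 24 other YAP and TAZ target genes, 21 were tested, 5 rose and 10 fell, with a median log2 fold change of -0.41. Thbs1, encoding thrombospondin-1, fell most among the named ones (28.5 ± 2.5 CPM in vivo and 255 ± 65.5 CPM in vitro, log2 fold change -3.11 ± 0.17, adjusted p = 1.69e-06). Tgm2, a transglutaminase, had 220 ± 45.3 CPM in vivo and 21.7 ± 8.05 CPM in vitro (3.39 ± 0.27, adjusted p = 1.49e-05). Of 7 TEAD factor and VGLL genes, 5 were tested and 2 rose: Tead1 by 0.75 ± 0.12 (adjusted p = 0.000667) and Vgll4 by 0.49 ± 0.09 (adjusted p = 0.00158). Of 19 tested Hippo kinases and scaffolds, 4 rose and 8 fell, led by Wwc1, encoding the scaffold KIBRA (-1.14 ± 0.10, adjusted p = 3.18e-05). Among 3 tested CCN relatives, Ccn5 rose (5.90 ± 0.38, adjusted p = 3.97e-06) and Ccn4 fell (-1.36 ± 0.20, adjusted p = 0.00053), and Ccn3, below the 5 CPM asked of named genes and given after its values were seen, rose (1.56 ± 0.401 CPM in vivo and 0.588 ± 0.285 CPM in vitro, 1.47 ± 0.43, adjusted p = 0.0172). Host markers were low but not absent in the 4T1 cells from lung, where the 8 fibroblast markers summed to 29.1 to 30.9 CPM in vivo and 6.80 to 12.4 CPM in vitro, the alveolar type 2 markers to 175 to 641 and 70.1 to 87.3 CPM, and 9 leukocyte markers to 60.4 to 526 and 10.9 to 13.0 CPM (without Lyz2, which alveolar type 2 cells also express, 14.8 to 55.1 and 10.9 to 12.9 CPM). Their part in the rise of Ccn5 and Tgm2 and in the member values was not tested.

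In niche epithelium 4 of the 10 genes, Axl, Ankrd1, Ccn2 and Wwtr1, were higher than in distal epithelium, and Amotl2 was lower. Over all 17640 genes tested, 54.3% were called, 28.5% higher and 25.8% lower, so 4 and 1 of 10 are near the background. The libraries did not overlap for 6 genes, 5 higher and 1 lower, against 66.2% of all genes. The higher to lower split over all genes depends on scaling (5025 and 4554 genes with TMM, 7207 and 3319 with library size alone, 9212 and 2397 with limma on TPM), and the median of all genes moved from 0.02 with TMM by more than 0.1, to 0.30 and 0.48.

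Of the 10 genes, Axl differed most. It had 790, 779 and 715 CPM in niche libraries, against 106, 124 and 134 CPM in distal ones (log2 fold change 2.50 ± 0.13, adjusted p = 1.31e-07). The niche libraries lay far above the distal ones and close to the 858 to 1102 CPM of 4T1 cells in vivo. Its ligand gene Gas6 fell (343 ± 37.9 CPM in niche and 791 ± 107 CPM in distal cells, -1.35 ± 0.15, adjusted p = 2.33e-05), while Pros1, a related ligand gene, rose (0.77 ± 0.15, adjusted p = 0.00111) and so did the receptor gene Mertk (0.93 ± 0.23, adjusted p = 0.00471). Ankrd1 had 41.0, 54.5 and 25.8 CPM in niche libraries, against 10.2, 12.4 and 13.3 CPM in distal ones, apart in every library (1.61 ± 0.25, adjusted p = 0.000274).

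The other calls are less firm. Ccn2 had 78.4, 162 and 96.0 CPM in niche libraries, against 51.4, 65.6 and 70.6 CPM in distal ones (0.69 ± 0.24, adjusted p = 0.0295). The high niche library 2 weighs on it: without that library the log2 fold change was 0.35 and adjusted p 0.156, and the call was also lost without distal library 1 (0.111) or 2 (0.061). Wwtr1 had 56.9, 60.1 and 55.7 CPM in niche libraries, against 39.0, 38.6 and 45.8 CPM in distal ones (0.34 ± 0.11, adjusted p = 0.0257), with the call lost without niche library 1 (0.0519) or 2 (0.0766) or distal library 1 (0.085) or 2 (0.0917). Amotl2 had 40.0, 53.3 and 53.0 CPM in niche libraries, against 78.5, 96.2 and 80.9 CPM in distal ones (-0.95 ± 0.13, adjusted p = 0.000118), but -0.22 and adjusted p = 0.22 with limma on TPM. Ccn1 at 1031, 1413 and 1262 CPM in niche libraries, against 798, 943 and 714 CPM in distal ones, did not pass the test (0.44 ± 0.18, adjusted p = 0.0537) although the groups did not overlap. It passed with library size alone (0.71, adjusted p = 0.00323), limma on TPM (1.03, 0.000324), no filter (0.47, 0.00667) and DESeq2 (0.40, 0.042). It also passed with the replicate number as a block (0.43, 0.0363), and without niche library 1 (0.57, 0.03) or distal library 2 (0.56, 0.0397). Distal library 1 carries no replicate letter in its title.

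Ajuba (-0.38, 95% interval -0.79 to 0.02), Vgll3 (-0.44, -0.93 to 0.05), Lats2 (0.17, -0.13 to 0.46) and Yap1 (-0.27, -0.53 to -0.02) did not pass the test after adjustment. Their libraries overlapped between the groups. Under some alternatives they passed: Lats2 with library size alone (0.43, adjusted p = 0.0167) and limma on TPM (0.76, 0.00124), Ajuba without niche library 2 (-0.57, 0.0309), Vgll3 with no filter (-0.42, 0.0328), the block (-0.46, 0.0336) or the 2 groups alone (-0.52, 0.0334), and Yap1 with DESeq2 size factors (-0.32, 0.0366), DESeq2 (-0.32, 0.0322) or the 2 groups alone (-0.35, 0.0268). Yap1 changed sign with limma on TPM (0.37, adjusted p = 0.026). The Yap1 to Wwtr1 ratio averaged 0.881 ± 0.0938 in niche and 1.28 ± 0.174 in distal cells (SD, n = 3 each; exact two-sided permutation p = 0.1, adjusted 0.15). That of Ccn1 to Ccn2 averaged 13.0 ± 2.91 in niche and 14.6 ± 3.2 in distal cells (exact permutation p = 0.5, adjusted 0.5).

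Of the 24 other YAP and TAZ target genes, 8 rose and 6 fell in niche cells. Birc5 (survivin) rose (68.4 ± 15.4 CPM in niche and 10.6 ± 2.03 CPM in distal cells, 2.54 ± 0.20, adjusted p = 1.59e-06), and Thbs1 rose (1.87 ± 0.19, adjusted p = 1.37e-05), in contrast to its fall in 4T1 cells. Cav1, encoding caveolin-1 and also a marker of alveolar type 1 cells, fell (-2.06 ± 0.14, adjusted p = 7.11e-07). Of 5 tested TEAD and VGLL genes, Tead2 rose (0.68 ± 0.14, adjusted p = 0.00148), and Tead3 (-0.81 ± 0.23, adjusted p = 0.00979) and Vgll4 (-0.67 ± 0.10, adjusted p = 0.00016) fell. Of 20 Hippo kinases and scaffolds, 6 rose and 6 fell, with Wwc1 at 7.89 ± 1.44 CPM in niche and 57.6 ± 12.3 CPM in distal cells (-3.01 ± 0.20, adjusted p = 5.67e-07).

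Marker levels of other cell types moved with this comparison. Of 8 fibroblast markers, 6 rose and none fell, and all 10 alveolar type 2 markers and 9 of 10 alveolar type 1 markers fell. Of 9 leukocyte markers, 4 rose and 3 fell. Their sum was 2840 to 3894 CPM in niche and 9549 to 12785 CPM in distal libraries, most of it Lyz2, which is also on the alveolar type 2 list. The other 8 summed to 795 to 877 CPM in niche and 162 to 280.1 CPM in distal libraries, without overlap. A panel of 5 genes was chosen on these libraries. Each had a mean of at least 20 CPM in both 4T1 groups and a distal mean of at most 1% of its in vivo mean. The panel was in niche libraries at 26.4%, 19.7% and 15.9% of its in vivo 4T1 level. Its share of 1.06%, 0.70% and 0.85% in distal libraries was set by that choice. The excess of Axl over the distal mean in the niche libraries was 67.5%, 66.4% and 60.0% of its in vivo 4T1 level. That of Ankrd1 was 20.5%, 30.1% and 9.79%, and that of Wwtr1 was 17.4%, 20.9% and 16.1%. For Ccn2 the excess was 265%, 1656% and 558% of the in vivo level. The part of fibroblasts, leukocytes or 4T1 cells in these differences was not tested.

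**Figure D3:**
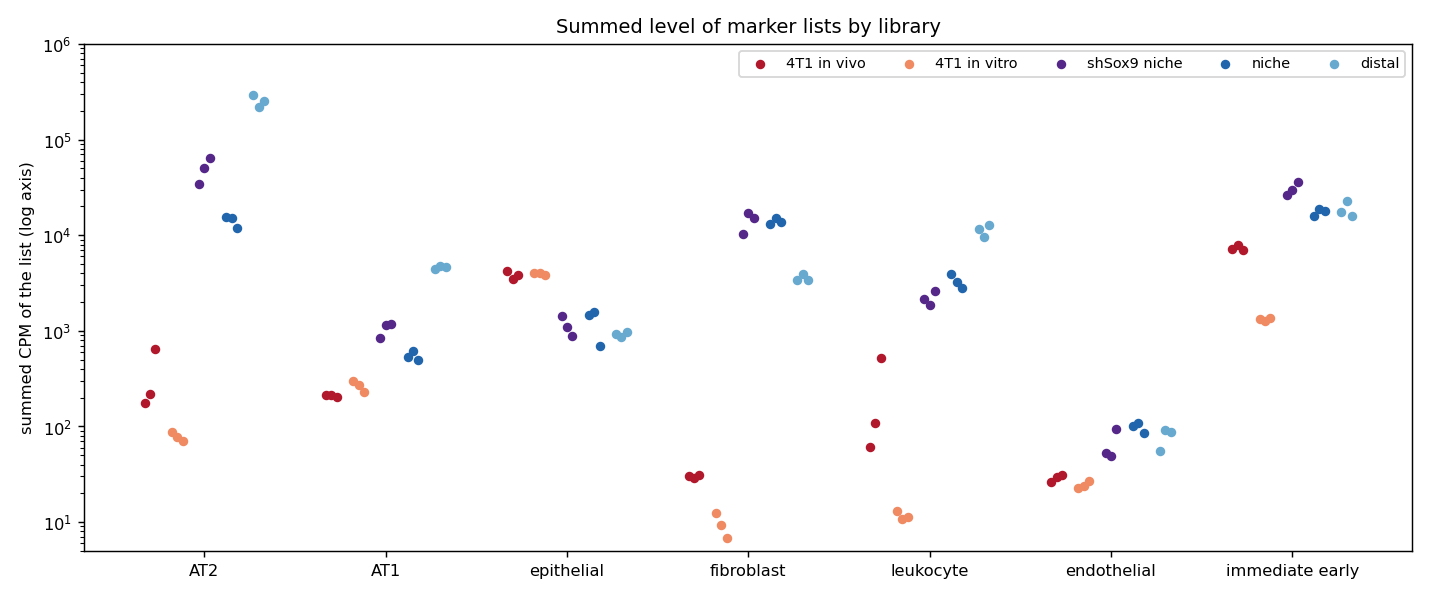
Summed CPM of marker lists of lung cell types in each library on a log axis, 1 point per library, by group. The fibroblast sum is 13052 to 14982 CPM in niche and 3384 to 3906 CPM in distal libraries, and 29.1 to 30.9 CPM in 4T1 cells in vivo. Lyz2 counts in both the alveolar type 2 and the leukocyte sum.

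In the niche libraries labelled shSox9, Ccn1 and Wwtr1 were higher and Axl lower than in niche libraries, and the other 7 genes did not pass the test. Of all 17640 genes, 20.5% were called, 9.68% higher and 10.8% lower. In this fit, which leaves out any pairing of libraries by letter, 2 and 1 of 10 are near the background. With the replicate block given below, the called share of the members was above that of all genes. Axl had 496, 432 and 379 CPM under shSox9, against 790, 779 and 715 CPM in niche libraries (-0.78 ± 0.13, adjusted p = 0.00165). No library overlapped. Wwtr1 had 75.9, 91.9 and 71.2 CPM under shSox9, against 56.9, 60.1 and 55.7 CPM in niche libraries (0.49 ± 0.11, adjusted p = 0.00995). It kept its call in 13 of 14 alternatives and lost it with limma on TPM (0.46, adjusted p = 0.051). Ccn1 had 1510, 2118 and 2326 CPM under shSox9, against 1031, 1413 and 1262 CPM in niche libraries (0.71 ± 0.18, adjusted p = 0.0168), and lost the call without shSox9 library 2 (0.0546) or 3 (0.0682) or niche library 1 (0.0766). The immediate early list moved with Ccn1 here: 11 of 14 genes rose and none fell. Their sum was 26212 to 35723 CPM under shSox9 and 15877 to 18754 CPM in niche libraries. In niche against distal epithelium 1 of the 14 rose and 5 fell, and the sum in distal libraries was 15751 to 23028 CPM. The part of these genes in the level of Ccn1 was not tested. The libraries did not overlap for 5 members, 4 higher and 1 lower, as for 37.9% of all genes.

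Libraries of these 2 groups with the same replicate letter deviated together. With the replicate number as a block over the 9 epithelial libraries, 7 members were called, 5 higher and 2 lower. Of all genes, 3638 of 17640 were then called (1683 higher and 1955 lower). Ajuba (0.57, adjusted p = 0.0271), Lats2 (0.37, 0.0354), Vgll3 (0.51, 0.0479) and Ccn2 (-0.55, 0.0376) then passed. With the block in these 2 groups alone, a setting added after seeing the data, Ajuba (0.57, 0.0368), Vgll3 (0.52, 0.0177) and Lats2 (0.38, 0.0291) passed and Ccn2 did not (-0.53, 0.055). Without the block, Ccn2 had 56.6, 78.6 and 85.4 CPM under shSox9, against 78.4, 162 and 96.0 CPM in niche libraries (-0.58 ± 0.24, adjusted p = 0.111). Ankrd1 had 34.7, 31.7 and 21.9 CPM under shSox9, against 41.0, 54.5 and 25.8 CPM in niche libraries (-0.43 ± 0.24, adjusted p = 0.243), which overlap. Yap1 (0.31, 95% interval 0.05 to 0.56, adjusted p = 0.0871) and Amotl2 (0.04, -0.25 to 0.34, adjusted p = 0.856) did not pass either way. The Ccn1 to Ccn2 ratio averaged 29.7 ± 0.783 under shSox9 and 13.0 ± 2.91 in niche libraries (SD, n = 3 each; exact two-sided permutation p = 0.1, adjusted 0.15). That of Yap1 to Wwtr1 averaged 0.758 ± 0.0854 under shSox9 and 0.881 ± 0.0938 in niche libraries (exact permutation p = 0.2, adjusted 0.24).

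Among other pathway genes under shSox9, 3 of 5 tested TEAD and VGLL genes rose and none fell: Tead3 by 0.75 ± 0.22 (adjusted p = 0.0361), Tead2 by 0.63 ± 0.13 (adjusted p = 0.00694) and Tead1 by 0.50 ± 0.14 (adjusted p = 0.0231). Of the 24 other targets, 6 rose and 3 fell, with Gadd45a, a stress-response gene, at 33.4 ± 6.07 CPM under shSox9 and 14.4 ± 1.69 CPM in niche libraries (1.24 ± 0.16, adjusted p = 0.000478). Markers moved here too: 9 of 10 alveolar type 2, 4 of 10 alveolar type 1 and 2 of 8 fibroblast markers rose, and none of these fell. The alveolar type 1 list summed to 851 to 1175 CPM under shSox9 and 493 to 609 CPM in niche libraries. Of 9 leukocyte markers 4 fell and Cd3e rose. Ptprc, the pan-leukocyte gene CD45, had 71.9, 31.3 and 36.9 CPM under shSox9, against 227, 207 and 188 CPM in niche libraries (-2.12 ± 0.30, adjusted p = 0.000707). The macrophage genes Csf1r (-2.52 ± 0.46, adjusted p = 0.00324) and Cd68 (-2.42 ± 0.48, adjusted p = 0.00519) and the integrin gene Itgam (-1.63 ± 0.50, adjusted p = 0.0401) fell with it, and without Lyz2 the leukocyte list summed to 106 to 353 CPM under shSox9 and 795 to 877 CPM in niche libraries. Of 9 endothelial markers Kdr (-1.11 ± 0.33, adjusted p = 0.0355) and Cdh5 (-0.87 ± 0.27, adjusted p = 0.0444) fell, and of 5 epithelial markers Epcam (-0.995 ± 0.26, adjusted p = 0.0213) fell. The 4T1 panel share was 33.2%, 17.0% and 12.0% under shSox9 and 26.4%, 19.7% and 15.9% in niche libraries, and as a median over the panel genes 17.4%, 9.02% and 12.1% under shSox9 and 19.0%, 20.8% and 13.9% in niche libraries. Their part in the member values was not tested.

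Set against distal epithelium, the shSox9 niche libraries were higher for 5 members (Ccn1, Ankrd1, Axl, Lats2 and Wwtr1) and lower for Amotl2, with 43.8% of genes called, 21.7% higher and 22.0% lower (3833 and 3886 genes with TMM, 6471 and 2662 with library size alone, 8789 and 1962 with limma on TPM). The libraries did not overlap for these 6 members, against 54.6% of all genes. The gain in Lats2 was 0.55 ± 0.13 (adjusted p = 0.00599). With limma on TPM, Amotl2 lost its call (-0.30, adjusted p = 0.109). Under that setting Ccn2 (0.65, 0.0371), Ajuba (0.64, 0.0282), Vgll3 (0.64, 0.0172) and Yap1 (0.62, 0.00182) passed as higher. Yap1 also passed with library size alone (0.31, 0.0357). The niche, shSox9 and distal comparisons share libraries. Axl at 435.6 ± 58.5 CPM under shSox9 lay between 762 ± 40.6 in niche and 121 ± 14.6 in distal cells, and Ccn1 and Wwtr1 rose further above niche cells.

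4T1 cells in vivo and niche epithelium came from the same kind of lung, so their levels can be put side by side. Of the 10 genes, 5 were higher in 4T1 cells in vivo (Ankrd1, Ajuba, Axl, Yap1, Wwtr1) and 5 lower (Ccn1, Ccn2, Amotl2, Vgll3, Lats2), where 64.8% of 18242 genes were called, 28.9% higher and 36.0% lower. The libraries did not overlap for 9 members, 4 higher and 5 lower, against 71.5% of all genes. The largest gap was Vgll3, at 0.467 ± 0.0576 CPM in 4T1 cells in vivo and 51.2 ± 12.0 CPM in niche cells (-6.72 ± 0.35, adjusted p = 2.64e-10). Yap1 (0.27 ± 0.11, adjusted p = 0.0474) lost its call with DESeq2 (adjusted p = 0.289) and without any 1 of the 3 in vivo libraries or niche library 1 or 3 (0.0657 to 0.333). Axl (0.41 ± 0.13, adjusted p = 0.0109) lost its call without in vivo library 2 (0.0712). Across the 5 groups the highest mean level was 154.7 times the lowest for Vgll3 and 1.49 times for Yap1.

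The change from in vitro to in vivo in 4T1 cells was then set against the change from distal to niche in epithelium, in 1 model over all 15 libraries. The change was lower in 4T1 cells for 7 members and higher for 1, with 50.3% of 18242 genes called, 21.2% lower and 29.1% higher. The median over all genes was 0.30, and the higher to lower split was 5300 and 3871 genes with TMM, 4482 and 4754 with DESeq2 size factors and 3288 and 7034 with limma on TPM. Ccn2 differed by -4.45 ± 0.32 (adjusted p = 6.69e-08), Vgll3 by -3.35 ± 0.45 (adjusted p = 1.93e-05), Axl by -3.14 ± 0.19 (adjusted p = 1.26e-08) and Ankrd1 by -2.69 ± 0.30 (adjusted p = 3.78e-06). Yap1 (0.05, 95% interval -0.29 to 0.38) and Amotl2 (-0.19, -0.60 to 0.22) did not pass, and under other scalings the sign for Yap1 flipped. With limma on TPM both passed, as lower in 4T1 cells (-0.60, adjusted p = 0.00381 for Yap1 and -0.91, adjusted p = 0.00172 for Amotl2). The Wwtr1 difference (0.39 ± 0.15, adjusted p = 0.0454) kept its call in 1 of 18 alternatives.

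**Figure D4:**
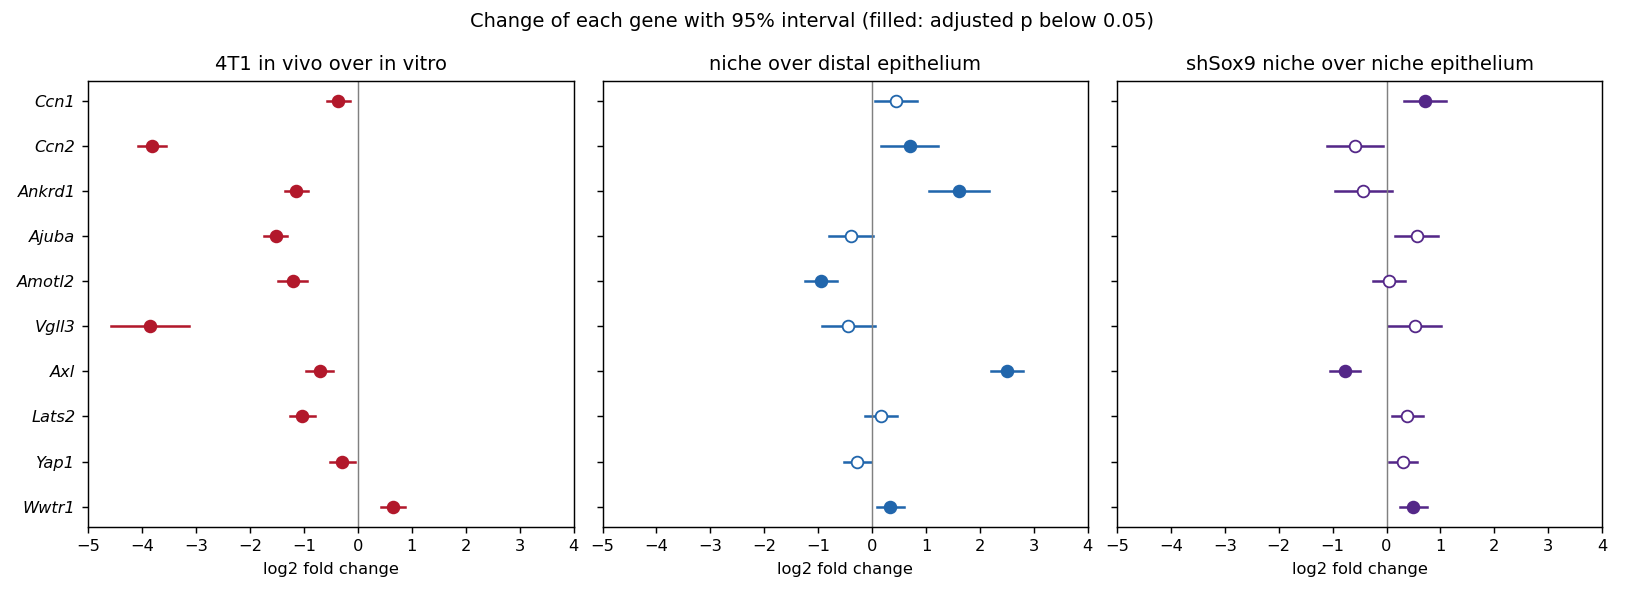
Log2 fold changes of the 10 genes with 95% intervals, filled where edgeR's adjusted p is under 0.05. The comparisons drawn are 4T1 cells in vivo against in vitro, niche against distal epithelium, and shSox9 niche against niche epithelium. In 4T1 cells in vivo against in vitro, 9 genes lie below 0 and Wwtr1 above, while in niche against distal epithelium Axl (2.50) and Ankrd1 (1.61) lie highest and Amotl2 (-0.95) lowest.

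Profiles most like the members were sought over the 15 libraries among 11267 protein-coding genes of at least 5 CPM on average, by the mean absolute difference of centred log2 levels. Lats2 was closest to Tnks1bp1 (0.07 log2 units), Syde1 (0.12) and Lrrc58 (0.15), and Yap1 to Nxf1 (0.08), Agk (0.10) and Ube2b (0.10). Ankrd1 was closest to Depdc7 (0.11), Eno1b (0.16) and Eno1 (0.17), near-identical copies between which the counting could split reads. Ccn1 was closest to Maff (0.13), Dtx4 (0.19) and F2r (0.20), and Wwtr1 to Mast4 (0.15), Camkk2 (0.15) and Ehd2 (0.15). Vgll3 was closest to Akap12 (0.18), with Smtnl2 (0.41) and Scn3a (0.48) farther off. Amotl2 was closest to Fitm2 (0.19), Oxct1 (0.21) and Gzf1 (0.21), Axl to Gas2l3 (0.19), Itpripl1 (0.21) and Frrs1 (0.22), and Ajuba was close to Ctnnal1 (0.25) and Gm45716 (0.27). Ccn2 had no gene as near, with Fads3 (0.56), Ncam1 (0.56) and Abcg2 (0.65) the closest.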

How the data were processed

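The authors made 1 gene table per library with RSEM against GRCm38, per the submitters' processing notes, which also name DESeq2 and give no versions. Reads had 75 bases, per the labels' protocols. RSEM splits reads shared by several genes, so 11.8% to 14.1% of the deposited expected counts in a library were not whole. The authors' TPM values correct for transcript length. No source used here states the aligner or strand setting. Expected counts were rounded, genes with low counts removed with filterByExpr, and libraries scaled by TMM. edgeR's (4.0.16, R 4.3.3) quasi-likelihood test was run over all genes with Benjamini-Hochberg adjustment and a threshold of 0.05. In vivo and in vitro 4T1 cells were fitted with their own 6 libraries, the 9 epithelial libraries were fitted for the epithelial groups, and all 15 for comparisons across cell kinds. DESeq2 1.42.0 and limma 3.58.1 (log2 of TPM + 1) served as alternatives, beside other scalings, no filter, a replicate block, only the compared groups, and each library left out. The script was tested on simulated data.

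The 10 members, the gene lists and the tests were chosen with earlier results of these data known. All 10 genes are named, with up to 4 called genes per other list (at least 5 CPM in the higher group, largest change first) and the 3 most alike profiles per gene, of which 1 for Ajuba is not reported here. Same-letter libraries of shSox9 niche and niche cells had correlated deviations from their group means (0.219 to 0.289, other letters -0.213 to -0.0235). On these values the letters were taken to pair these libraries, as the titles give the letters alone. Depth was 15907254 to 30421678 counts per library, and floors cover counting error only. The deposited FPKM values were not used.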

Additional observations from a re-analysis of the deposited data

Results flagged for a closer look

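The change of 8 of the 10 genes in 4T1 cells (in vivo minus in vitro) differed from their change in epithelium (niche minus distal) by the interaction term of edgeR's model over all 15 libraries. The differences in log2 fold change were -0.74 for Ccn1 (adjusted p = 0.0105), -4.45 for Ccn2 (6.69e-08), -2.69 for Ankrd1 (3.78e-06), -1.08 for Ajuba (0.000652), -3.35 for Vgll3 (1.93e-05), -3.14 for Axl (1.26e-08), -1.13 for Lats2 (6.56e-05) and 0.39 for Wwtr1 (0.0454). Ccn1, Ajuba, Vgll3 and Lats2 did not pass the test in niche against distal epithelium, though each passed there under at least 1 alternative. The call on Wwtr1 was lost in 11 of 12 fits that left out 1 library and under every other alternative run.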

How the results depend on the processing

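Of 830 alternative values for single members, 718 kept direction and side of the threshold, 46 lost a call, 41 gained one and 25 changed sign. With limma on TPM the sign changed in niche against distal epithelium for Yap1 (0.37), Vgll3 (0.10) and Ajuba (0.15), in shSox9 niche against niche cells for Amotl2 (-0.0777), and in the difference of the 2 changes for Yap1 (-0.60) and Wwtr1 (-0.18). The Yap1 difference also changed sign with DESeq2 size factors (-0.13), library size alone (-0.17), DESeq2 (-0.13) and no filter (-0.21). With 1 library left out it ran from -0.186 to 0.0813, Amotl2 in shSox9 niche against niche cells from -0.0858 to 0.121, and in shSox9 niche against distal cells Yap1 from -0.0166 to 0.0788, Ccn2 from -0.00902 to 0.264 and Vgll3 from -0.116 to 0.266. The Wwtr1 difference lost its call with the replicate block (0.39, adjusted p = 0.0551), DESeq2 size factors (0.21, 0.291), library size alone (0.17, 0.427), DESeq2 (0.21, 0.31) and no filter (0.13, 0.834), and with 1 library left out it ran from 0.21 to 0.43. The 3 members called in shSox9 niche against niche cells became 5 with DESeq2 size factors or DESeq2, 6 without the filter and 7 with the replicate block. They became 6 with the block in these 2 groups alone, a setting added after seeing the data. Of all genes, 3666 and 4300 of 17640 were called with DESeq2 size factors and DESeq2. The count was 3973 of 31706 without the filter, 3638 of 17640 with the block and 3987 of 16522 with the block in the 2 groups. With limma on TPM, Wwtr1 lost its call (0.46, adjusted p = 0.051) and 3051 of 17640 genes were called. With 1 library left out, 2 to 5 members were called in this comparison (5 without shSox9 library 1). The genes called were then 2238 to 4224, lowest without niche library 1, against 3616 in all. Members called in niche against distal cells were 3 to 5 with 1 library left out, lowest without distal library 1. The genes called were then 8502 to 9044 of 18155 to 18274 tested. The cause of these shifts was not tested. In comparisons other than shSox9 niche against niche cells, replicate numbers were not shown to pair libraries. Same-number correlations were 0.0242 to 0.122 within 4T1 cells and -0.08 to 0.0954 for niche and distal cells. The block gave 10 and 7 members called, beside 7487 of 14022 and 9500 of 17640 genes. Distal library 1 is titled R1 and carries no letter, so setting it beside the libraries of letter A was a choice made here. A stricter 4T1 panel (20 CPM and 0.5%) held 0 genes and was not run. The panel share in distal cells, held low by the choice of the panel, averaged 0.675% as a median over genes.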
